A study of Mus musculus with 21 samples.

Results

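Chitinase-like proteins and the surface and secreted proteins of alternatively activated macrophages were followed through 9 mouse genes in skin with sclerodermatous chronic graft-versus-host disease. The members are Chil1, Chil3, Chil4, Arg1, Retnla, Mrc1, Cd163, Clec10a and Folr2, taken by symbol from a count table of 64050 gene symbols. All 9 were in the table, and all 9 are among the 20462 genes that passed the filter on low counts. The members were chosen by their measured levels in the isotype-treated and anti-IL1RAP-treated groups, so those levels are a description without a test.

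RNA was sequenced from 3 mm pieces of skin in 21 libraries. All recipients were BALB/c mice aged 8 weeks, which were irradiated with 700 cGy and then transplanted with bone marrow, and their skin was taken at week 7. The 4 mCAN10 libraries came from recipients of allogeneic B10.D2 marrow given mCAN10, an antibody to mouse IL1RAP. This is a co-receptor that several, but not all, cytokines of the IL-1 family need to signal. The 4 Allo libraries came from allogeneic recipients given the isotype control, mIgG2a with the LALA-PG changes, and the 4 Syn libraries from recipients of BALB/c marrow given the same isotype control. The 5 Nin libraries came from allogeneic recipients given nintedanib, an inhibitor of growth factor receptor kinases, and the 4 Allo_H libraries from allogeneic recipients given water. Treatment began on day 21 and lasted 4 weeks, with antibody at 20 mg/kg to begin with and at 10 mg/kg thereafter. Nintedanib was given at 50 mg/kg, by mouth each day in the treatment protocol but by intraperitoneal injection in the design text, so its route is uncertain. Both the disease and the donor strain part Allo from Syn, and the 2 cannot be told apart. The labels do not say whether each library is a separate mouse, and p-values measure the spread between libraries.

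Libraries held between 17130264 and 32899212 counted reads. The Syn, Allo and mCAN10 libraries were counted with other gene names than the Allo_H and Nin libraries, so levels were compared only within these 2 counting runs. Hair follicle transcripts stood apart in 2 Nin libraries, with a summed level of 62100 CPM (counts scaled to library size with TMM factors) in replicate 1 and 21300 CPM in replicate 3, against 22.6 to 33.8 CPM in the other 3. Skeletal muscle transcripts summed to 15.8 CPM in Allo replicate 1 and to 12400 CPM or more in the other 3 Allo libraries. The Y-linked genes counted summed to 0 to 15.2 CPM in mCAN10 (mean 3.8 ± 7.59, SD), 0 CPM in Allo and 2.73 to 6.61 CPM in Syn libraries. In Nin libraries they summed to 0 to 27.9 CPM and in Allo_H libraries to 0 CPM. Y-linked transcripts thus also part Allo from Syn libraries, and this difference cannot be told apart from disease or donor strain. Il1rap, the gene of the mCAN10 target, averaged 18.3 ± 3.02 CPM in mCAN10, 24.3 ± 2.71 CPM in Allo and 17.3 ± 2.20 CPM in Syn skin (SD, n = 4 each); an antibody to the protein is not checked by this level.

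Macrophages that meet IL-4 or IL-13 signal through the transcription factor STAT6 and take on what is called an alternative, tissue-repairing state. Mouse macrophages in this state are known for arginase 1, which turns arginine into ornithine and urea, for the secreted resistin-like protein of Retnla, for the chitinase-like lectins of Chil3 and Chil4, which fold like chitinases but do not cut chitin, and for the endocytic receptors of Mrc1 and Clec10a. Cd163 and Folr2 mark resident macrophages of many tissues, the skin among them. Chil3 is also made by mouse neutrophils and their precursors, and Chil1 by several cell types, epithelial cells included.

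Chil3 and Chil4 are close relatives, so their shared letters are shown first. Over the whole coding sequence (GENCODE M21 transcripts), Chil3 with 1194 bases and Chil4 with 1206 bases were identical in 94.4% of aligned columns. The corresponding identity was 53.5% between Chil1 and Chil3 and 52.7% between Chil1 and Chil4. The first 90 coding bases, with the differing bases in capitals, show how few letters tell reads of Chil3 and Chil4 apart:
Chil3: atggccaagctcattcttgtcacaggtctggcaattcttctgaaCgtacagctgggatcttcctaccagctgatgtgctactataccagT
Chil4: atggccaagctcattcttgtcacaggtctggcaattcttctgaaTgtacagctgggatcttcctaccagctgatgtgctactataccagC
Of all 50-base stretches of the Chil3 transcript, 18.5% also occurred in Chil4, as did 3.75% of 100-base stretches and 0% of 150-base stretches. No 50-base stretch of Chil1 occurred in either gene. The sources used here do not say how the authors' counting treated reads that match both genes, so a part of each gene's counts may belong to the other.

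STAT6 is known to bind a pair of short half-sites, TTC and GAA, held 3 or 4 bases apart. The promoter windows of the RefSeq table (GRCm38.p6, 250 bases before to 50 bases after a gene's start) covered 7 of the 9 members in 8 windows, with 2 windows for Folr2; Arg1 and Clec10a had none. The letters searched were TTC followed by GAA with 4 bases of any kind between them, and the same with 3 bases between them. Each motif reads the same on both strands, and both can share a TTC or a GAA. The form with 4 bases was found in 1 of the 8 windows (Retnla), and in 6.95% of all 32851 windows. The form with 3 bases was found in 2 of the 8 windows (Chil3 and Chil4), and in 8.3% of all windows. The 250 bases before the start of these 3 genes follow, with the match in capitals; Chil3 at chr3:106167565-106167814 and Chil4 at chr3:106219480-106219729 are on the minus strand, Retnla at chr16:48842359-48842608 on the plus strand:
Chil3: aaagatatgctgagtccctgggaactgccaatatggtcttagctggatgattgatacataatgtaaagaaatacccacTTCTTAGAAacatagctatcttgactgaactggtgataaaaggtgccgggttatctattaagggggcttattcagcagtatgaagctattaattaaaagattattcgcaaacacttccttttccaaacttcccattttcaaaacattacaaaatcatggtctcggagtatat
Chil4: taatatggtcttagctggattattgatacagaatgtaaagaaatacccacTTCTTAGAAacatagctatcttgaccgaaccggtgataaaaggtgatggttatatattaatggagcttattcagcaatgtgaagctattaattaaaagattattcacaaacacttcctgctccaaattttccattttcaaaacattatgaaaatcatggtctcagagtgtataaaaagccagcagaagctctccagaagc
Retnla: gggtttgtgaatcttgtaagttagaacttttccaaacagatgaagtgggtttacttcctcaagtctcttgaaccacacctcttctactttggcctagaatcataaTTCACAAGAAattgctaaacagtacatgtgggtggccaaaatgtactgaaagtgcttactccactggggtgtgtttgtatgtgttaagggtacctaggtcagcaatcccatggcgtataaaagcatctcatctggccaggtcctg
Counted from the annotated start of the gene, the match begins at position -172 in Chil3, -200 in Chil4 and -145 in Retnla. The Chil3 and Chil4 windows were identical in 92.3% of 272 aligned columns, and the letters around their match are nearly the same. A match describes these letters and shows no binding.

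Across the first counting run the 9 genes did not move as a block. The 3 chitinase-like genes were higher in Allo than in Syn skin and lower in mCAN10 than in Allo skin. Arg1, Cd163 and Folr2 had lower means in Allo than in Syn skin and higher means in mCAN10 than in Allo skin, with overlap of the mCAN10 and Allo libraries for Cd163. Mrc1 and Clec10a had higher means in Allo than in Syn skin, with overlap of the libraries for Mrc1, and in mCAN10 skin lay near the Allo level. The libraries of the 2 groups did not overlap for 6 of the 9 members in Allo against Syn skin, where this held for 29.2% of all tested genes, for 5 in mCAN10 against Allo skin (23.1%) and for 5 in mCAN10 against Syn skin (18.8%), and nothing is read from these counts. The comparison of Allo with Syn and that of mCAN10 with Allo share the 4 Allo libraries, so opposite signs in the 2 comparisons are no independent finding.

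**Figure D1:**
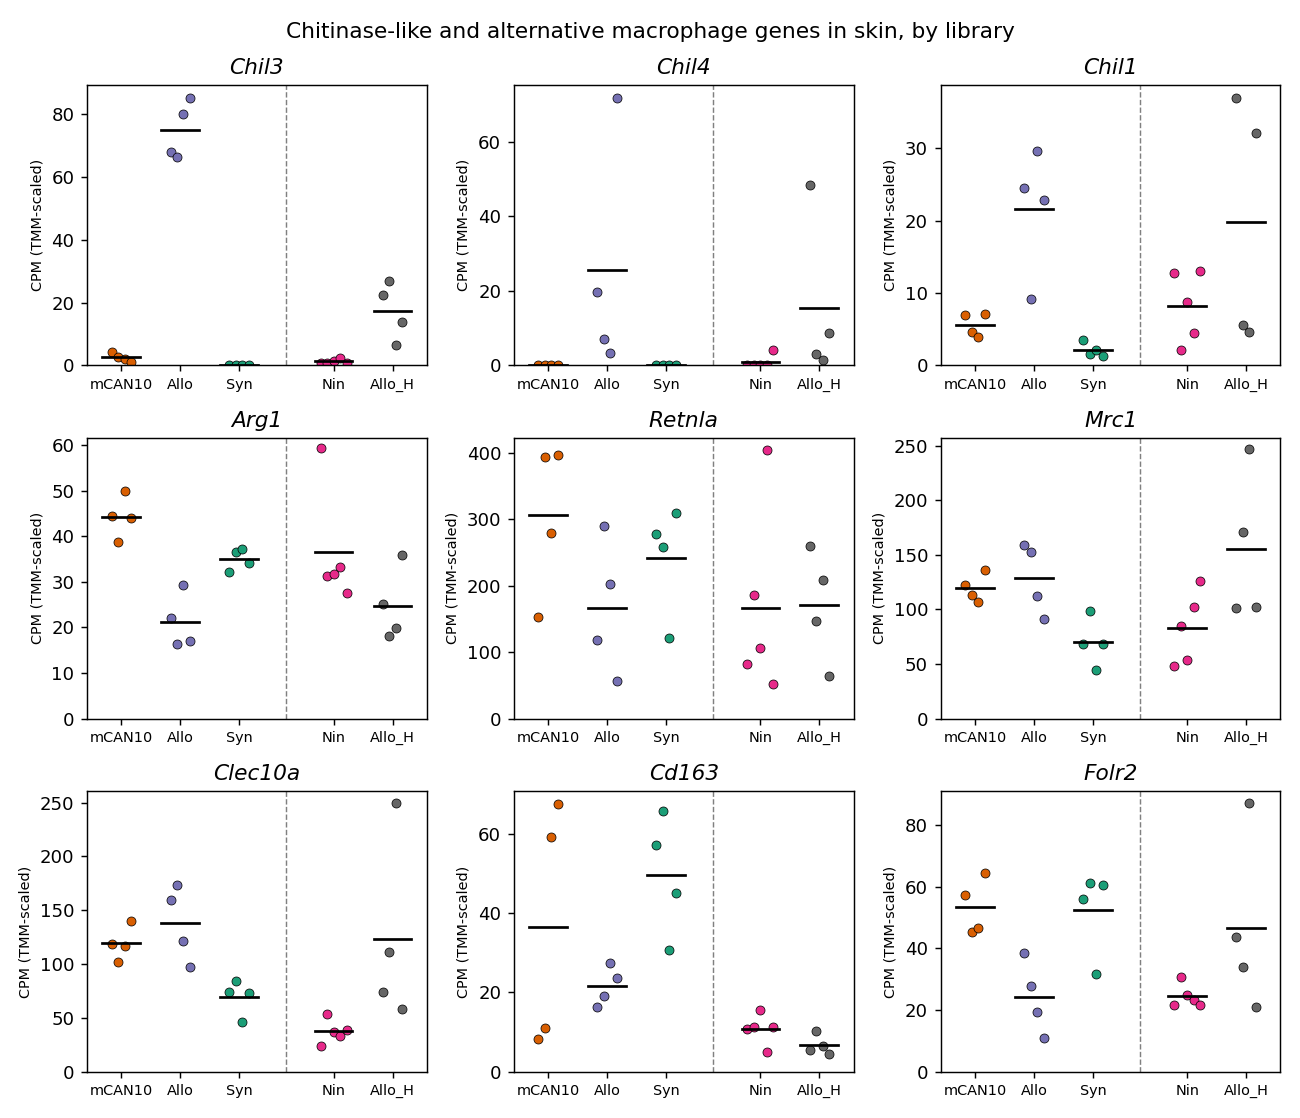
Level of each of the 9 genes in every library, in CPM scaled with TMM factors (y axis, linear, from 0), by group; each point is a library and each bar the group mean. The dashed line parts the 2 counting runs. Chil3 lies between 66.3 and 85.0 CPM in Allo, between 1.10 and 4.36 CPM in mCAN10 and at 0 in Syn libraries, while Mrc1 and Clec10a overlap between mCAN10 and Allo.

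Chil3, whose secreted product is also called Ym1, had 4.36, 2.78, 1.96 and 1.10 CPM in the mCAN10 libraries, 68.0, 66.3, 79.9 and 85.0 CPM in the Allo libraries, and 0 CPM in every Syn library. All 4 Allo libraries lay far above all others of the run, the mCAN10 libraries were low but none was at 0, and the 3 groups did not overlap. Against a floor of 3 counts over the Syn group, Chil3 was at least 2541-fold higher in Allo and at least 86.6-fold higher in mCAN10 than in Syn skin. Its log2 fold change in mCAN10 against Allo skin was -4.86 ± 0.51 (SE), a level 29.1-fold lower. Leaving out single libraries kept this value between -5.26 and -4.64.

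Chil4, the close relative of Chil3 whose product is also called Ym2, had 0 CPM in every mCAN10 library, 19.8, 7.12, 3.34 and 71.8 CPM in the Allo libraries, and 0 CPM in every Syn library. Every Allo library held Chil4 reads, but the highest had 21.5 times the level of the lowest, against 1.28 times for Chil3 in the same 4 libraries. Chil4 was at least 866-fold higher in Allo than in Syn skin and at least 852.7-fold lower in mCAN10 than in Allo skin, both against a floor of 3 counts over the group at 0. Both bounds rest on Allo replicate 4: without it they were 342.6-fold and 337.4-fold.

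Chil4 did not follow Chil3 in a fixed ratio. In mCAN10 skin 266 reads fell on Chil3 and 0 on Chil4, which allows a Chil4 share of up to 1.13% of both. In Allo skin 5772 reads fell on Chil3 and 1786 on Chil4, and the Chil4 share in single libraries was 22.6%, 9.70%, 4.01% and 45.8%. The limit in mCAN10 skin lies below the lowest of these shares.

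**Figure D2:**
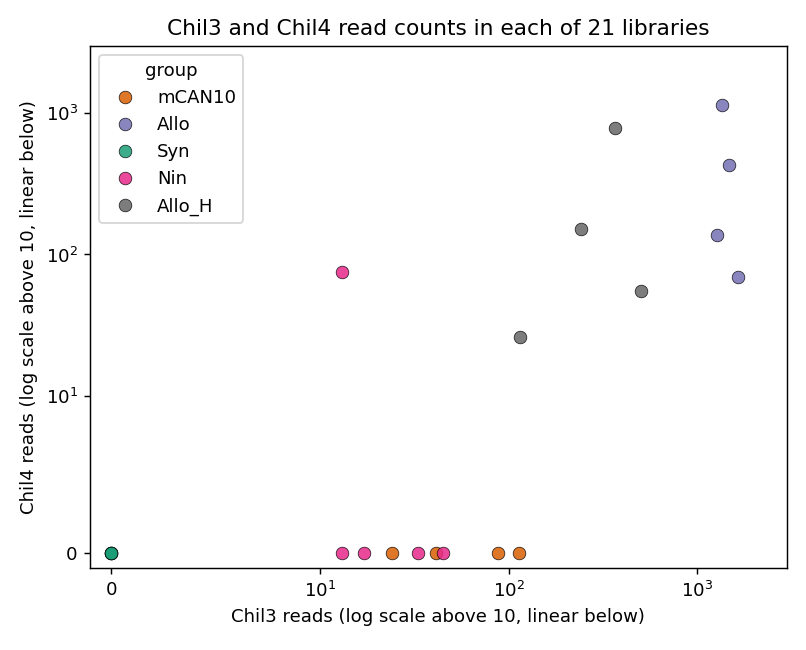
Reads assigned to Chil3 (x axis) and to Chil4 (y axis) in each of the 21 libraries, on axes that are logarithmic above 10 reads and linear below; each point is a library, coloured by group. The mCAN10 libraries lie on the x axis with 24 to 113 Chil3 reads and no Chil4 read, the Allo libraries at the upper right, the 4 Syn libraries at the origin, and Nin replicate 5 alone among the Nin libraries above the x axis with 75 Chil4 reads.

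Chil1, which encodes a secreted chitinase-like lectin without enzyme activity, had 6.94, 4.62, 3.87 and 7.05 CPM in mCAN10, 24.5, 9.20, 29.6 and 22.9 CPM in Allo and 3.55, 1.54, 2.06 and 1.34 CPM in Syn libraries. Unlike Chil3 and Chil4 it was measured in every library, and its 3 groups did not overlap, in the order Allo, mCAN10, Syn. Its log2 fold change was -1.94 ± 0.63 in mCAN10 against Allo and 3.34 ± 0.68 in Allo against Syn skin, and its mean in mCAN10 skin was 2.65 times that in Syn skin.

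Arg1 had 44.4, 38.7, 49.9 and 44.0 CPM in mCAN10, 22.0, 16.4, 29.4 and 17.1 CPM in Allo and 32.1, 36.5, 37.2 and 34 CPM in Syn libraries. Arg1, in the textbook a companion of Chil3 in alternative activation, was thus lowest where Chil3 was highest, and the groups stood apart in the order mCAN10, Syn, Allo. The log2 fold change was 1.06 ± 0.24 in mCAN10 against Allo and -0.72 ± 0.24 in Allo against Syn skin. Arginase 1 is also made by cells other than macrophages, keratinocytes among them, and these libraries do not say which cells held the transcript. In bulk skin, fewer cells of a type and less RNA per cell cannot be told apart, here or for any other gene.

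Retnla, whose secreted product is made by macrophages and epithelia, had 152, 394, 280 and 396 CPM in mCAN10, 119, 290, 202 and 55.8 CPM in Allo and 278, 257, 120 and 309 CPM in Syn libraries. In CPM the groups overlapped in every pairing, and the level differed up to 5.20-fold among Allo libraries alone. The log2 fold changes, 0.87 ± 0.58 in mCAN10 against Allo and -0.53 ± 0.58 in Allo against Syn skin, were small beside this spread.

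Mrc1, the mannose receptor, had 122, 113, 107 and 136 CPM in mCAN10, 159, 153, 112 and 91.1 CPM in Allo and 68.1, 98.4, 44.0 and 68.3 CPM in Syn libraries. Clec10a, a galactose-binding lectin of macrophages and dendritic cells, had 118, 102, 117 and 140 CPM in mCAN10, 159, 173, 121 and 97.6 CPM in Allo and 74.3, 84.5, 46.3 and 72.6 CPM in Syn libraries. Both receptors were higher in mCAN10 than in Syn skin without overlap, and in both the mCAN10 libraries lay within the range of the Allo libraries. Log2 fold changes of mCAN10 against Allo were -0.11 ± 0.32 for Mrc1 and -0.21 ± 0.35 for Clec10a. Those of Allo against Syn were 0.89 ± 0.32 for Mrc1 and 0.99 ± 0.35 for Clec10a.

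Folr2, a folate receptor of resident macrophages, had 57.3, 45.4, 46.5 and 64.3 CPM in mCAN10, 38.4, 27.9, 19.4 and 11.1 CPM in Allo and 56.1, 61.2, 31.6 and 60.6 CPM in Syn libraries. The mCAN10 libraries all lay above the Allo libraries and overlapped the Syn libraries, with log2 fold changes of 1.14 ± 0.37 in mCAN10 against Allo and -1.11 ± 0.37 in Allo against Syn skin. Exons of Folr2 overlap an antisense gene, Gm10602, and the library kit does not mark strand, so reads of the 2 cannot be told apart.

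Cd163, the scavenger receptor for haemoglobin bound to haptoglobin, had 8.14, 11.1, 59.2 and 67.5 CPM in mCAN10, 16.2, 19.2, 27.4 and 23.7 CPM in Allo and 57.2, 65.7, 30.7 and 45.0 CPM in Syn libraries. All Allo libraries lay below all Syn libraries, while mCAN10 replicates 1 and 2 lay below every Allo library and replicates 3 and 4 in or just above the Syn range. The mean of mCAN10, 36.5 ± 31.2 CPM (SD, n = 4), describes none of its libraries. The log2 fold change in mCAN10 against Allo skin, 0.75 ± 0.52, ranged from -0.37 to 0.76 under other settings, so its sign is not stable. The same 2 mCAN10 libraries that were high in Cd163 were high in Cd209f, a lectin of resident dermal macrophages, which had 4.21, 2.91, 34.1 and 54.6 CPM in replicates 1 to 4. Skeletal muscle transcripts summed to 10900, 4610, 28400 and 28000 CPM in the same replicates, and the part of tissue depth in this split was not tested.

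In the test across all genes, edgeR's quasi-likelihood test, 4 members were called higher and 2 lower in Allo against Syn skin, where 22.6% of all tested genes were called (13.8% higher and 8.8% lower). For mCAN10 against Allo skin 1 was called higher and 2 lower, where 10.8% of all tested genes were called (5.58% higher and 5.19% lower). The members were chosen with these comparisons known, and nothing is read from these counts. The median log2 fold change of the 9 members was 0.89 in Allo against Syn and -0.11 in mCAN10 against Allo skin, where the median of all tested genes was 0 in both.

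**Figure D3:**
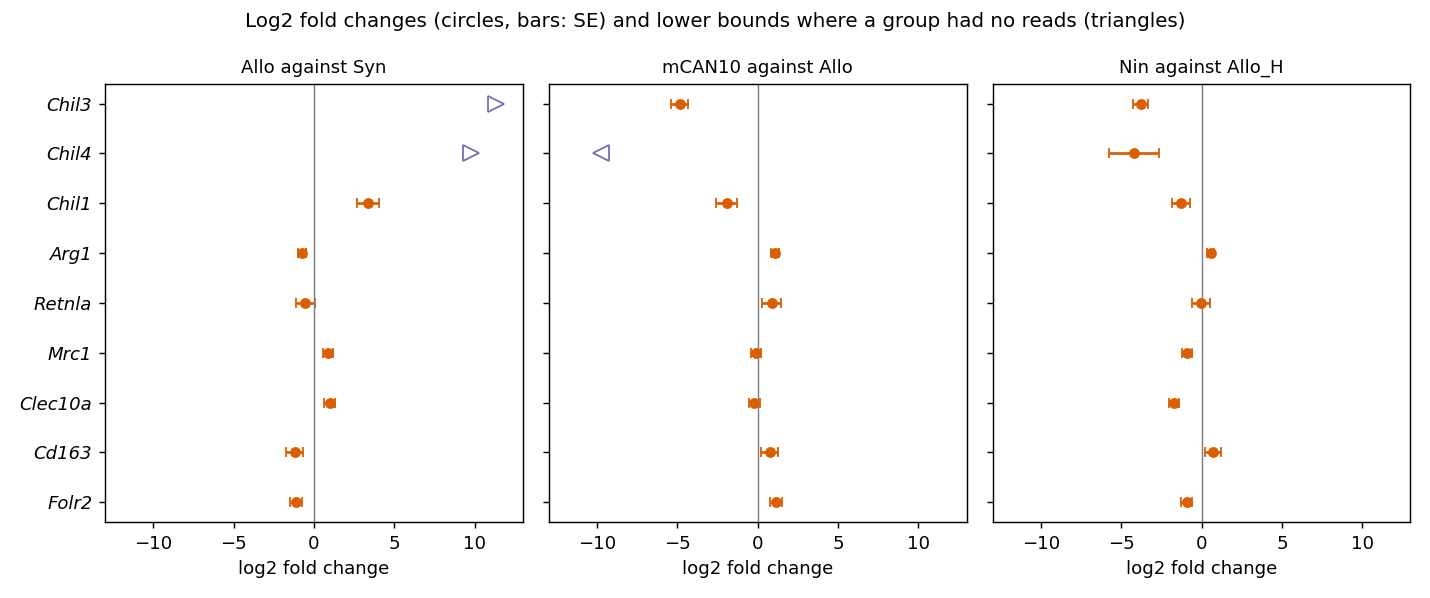
Log2 fold change of each of the 9 genes (x axis) in Allo against Syn, mCAN10 against Allo and Nin against Allo_H skin; circles are fitted values with their SE, and triangles are bounds against a floor of 3 counts where a whole group had no read. Chil3 and Chil4 lie farthest from 0 in every panel, and Arg1 lies on the other side of 0 from Chil1 in each.

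To compare levels between genes, CPM was divided by the summed exon length in kilobases. This length joins all annotated exons of a gene, 1632 bases for Chil3 and 2817 bases for Chil4. Their coding sequences have 1194 and 1206 bases, so the order of members of similar level depends on the length used. On this scale Retnla was the highest member in every group, with 510 ± 193 CPM per kb in mCAN10, 278 ± 170 in Allo and 402 ± 139 in Syn skin (SD, n = 4 each). Chil3 ranked behind Retnla and level with Clec10a in Allo skin, at 45.9 ± 5.57 and 47.5 ± 12 CPM per kb, a difference smaller than the spread. In mCAN10 skin Chil3 ranked next to last of the members, at 1.56 ± 0.85 CPM per kb, between Chil1 at 2.00 ± 0.577 and Chil4 at 0.

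The amount of macrophage transcript itself differed between groups, so each member was also set against 14 pan-macrophage genes of the same library, as its log2 CPM minus their mean log2 CPM. These 14 genes did not move evenly. Log2 fold changes in Allo against Syn skin were 2.43 ± 0.48 for C1qb, 0.99 ± 0.34 for Cd68 and 0.72 ± 0.39 for Csf1r. That of Mrc1, 0.89 ± 0.32, lay near the last 2. Values on this scale therefore depend on the genes chosen. The 14 genes summed to 1918 to 3739 CPM in mCAN10, 2425 to 5301 CPM in Allo and 1278 to 1696 CPM in Syn libraries. Relative to them Mrc1 stood at 0.66 ± 0.46 in mCAN10, 0.28 ± 0.20 in Allo and 0.83 ± 0.10 in Syn skin; on this scale every Allo library lay below every Syn library, where in CPM the Allo mean was the higher. Clec10a gave nearly the same values, 0.66 ± 0.54, 0.38 ± 0.21 and 0.85 ± 0.17 in mCAN10, Allo and Syn skin, but its Allo and Syn libraries overlapped. Relative to macrophage genes Folr2 stood at -0.51 ± 0.47 in mCAN10, -2.23 ± 0.27 in Allo and 0.43 ± 0.27 in Syn skin, and Arg1 at -0.77 ± 0.54, -2.32 ± 0.68 and -0.11 ± 0.43. Both were lowest in Allo libraries, without overlap with either other group. Retnla stood at 1.92 ± 1.07 in mCAN10, 0.44 ± 0.72 in Allo and 2.59 ± 0.46 in Syn skin, and Cd163 at -1.61 ± 2, -2.28 ± 0.83 and 0.34 ± 0.15. For Retnla and Cd163 every Allo library lay below every Syn library, while the mCAN10 libraries overlapped the Allo libraries. Chil3 stayed highest in Allo skin, at -0.47 ± 0.74, against -4.99 ± 0.52 in mCAN10 skin (SD of log2 differences, n = 4 each). Chil1, whose groups did not overlap in CPM, overlapped in every pairing on this scale. It stood at -3.77 ± 0.41 in mCAN10, -2.38 ± 1.14 in Allo and -4.19 ± 0.77 in Syn skin.

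**Figure D4:**
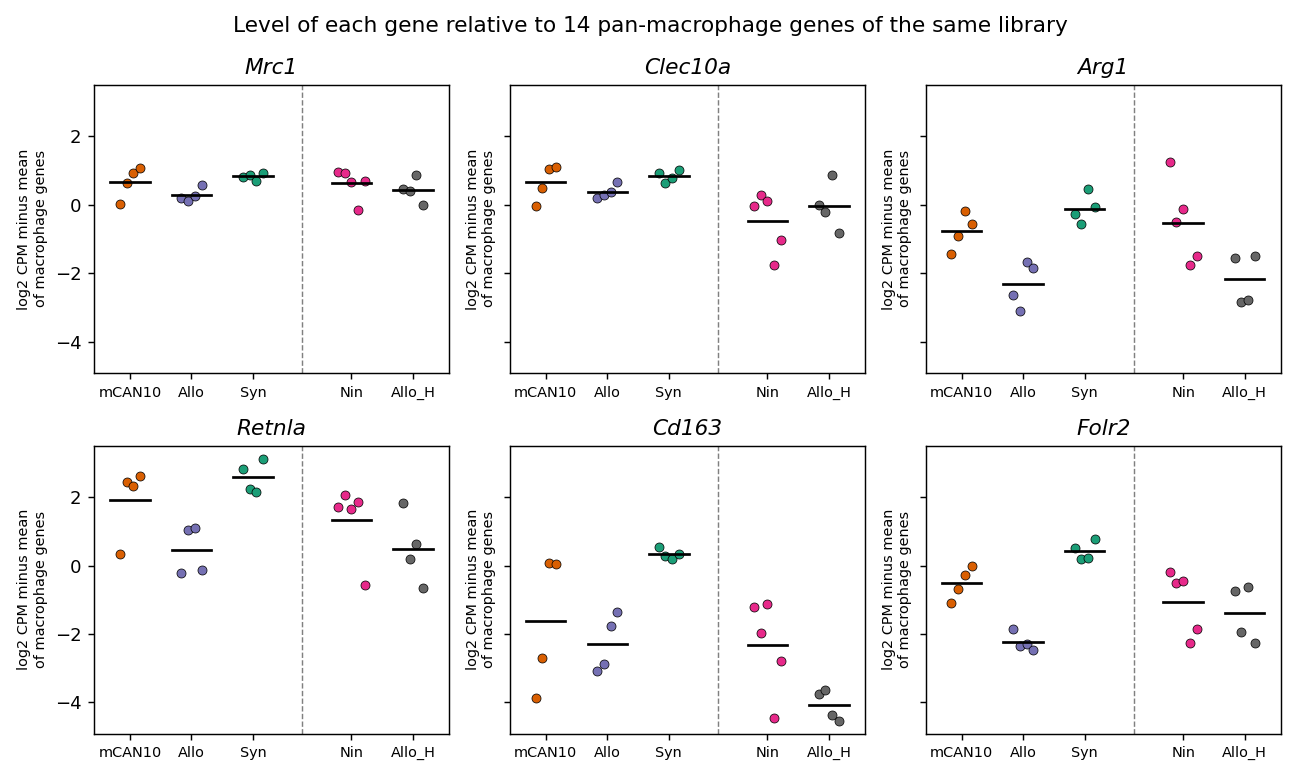
Log2 CPM of 6 members minus the mean log2 CPM of 14 pan-macrophage genes of the same library (y axis), by group; each point is a library, each bar the group mean, and the dashed line parts the 2 counting runs. Folr2 lies between -2.46 and -1.85 in Allo and between 0.19 and 0.77 in Syn libraries, while Mrc1 lies between 0.02 and 1.07 in mCAN10, 0.10 and 0.57 in Allo and 0.71 and 0.94 in Syn libraries.

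Other genes of the pathway, none of them a member, were tested in the same fit. The lists here and below were chosen with earlier results of these data known, so their counts give no independent support. Beside each count stands the share of all tested genes called. This was 22.6% in Allo against Syn and 10.8% in mCAN10 against Allo skin. Of 19 tested genes of the IL-4 and IL-13 axis 7 rose and 1 fell in Allo against Syn skin, with a median log2 fold change of 0.67. Cish, a feedback inhibitor of cytokine signalling, rose by 1.16 ± 0.20 (edgeR adjusted p = 0.000538), the transcription factor Stat3 by 0.92 ± 0.16 (edgeR adjusted p = 0.00063), the inhibitor Socs1 by 2.33 ± 0.45 (edgeR adjusted p = 0.00133) and the IL-10 receptor chain Il10ra by 2.34 ± 0.54 (edgeR adjusted p = 0.00482). None of these 4 serves IL-4 and IL-13 alone. Il4ra, the receptor chain shared by IL-4 and IL-13, rose as well, by 0.87 ± 0.27 (edgeR adjusted p = 0.0245). In mCAN10 against Allo skin Il4ra stood at -0.82 ± 0.27 and did not pass (edgeR adjusted p = 0.0555). Its means were 76.4 ± 9.14 CPM in mCAN10, 135 ± 18.5 CPM in Allo and 73.7 ± 5.19 CPM in Syn skin. Il4 averaged 1.11 ± 0.283 CPM in Allo and 2.14 ± 0.414 CPM in Syn skin and Il13 0.739 ± 0.304 and 0.191 ± 0.123 CPM (SD, n = 4 each), and neither passed the test (edgeR adjusted p = 0.13 for Il4 and 0.137 for Il13). Under mCAN10, 1 of the 19 rose against Allo skin and 2 fell, with a median of -0.14. The 2 were Stat3, which fell by 0.77 ± 0.16 on the log2 scale (edgeR adjusted p = 0.00497), and Cish, which fell by 0.69 ± 0.20 (edgeR adjusted p = 0.0289); the alarmin Il25 rose by 3.07 ± 0.84 (edgeR adjusted p = 0.023) at a mean of 0.71 CPM in mCAN10 and 0.0814 CPM in Allo skin. The 2 falling genes became 5 in the fit of that counting run alone, and 1 without mCAN10 replicate 1 or 3 or Allo replicate 2 or 4, where Cish lost its call; Il25 lost its call without mCAN10 replicate 3 or Allo replicate 1, 3 or 4.

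Of 19 other tested genes of alternative activation 8 rose and 1 fell in Allo against Syn skin, with a median log2 fold change of 0.90. Pdcd1lg2, which encodes the inhibitory ligand PD-L2, rose by 5.40 ± 0.74 (edgeR adjusted p = 0.000112), the chemokine Ccl17 by 5.38 ± 1.03 (edgeR adjusted p = 0.00124) and the scavenger receptor Msr1 by 2.87 ± 0.56 (edgeR adjusted p = 0.00142). Ccl24, an eosinophil-attracting chemokine, fell by 2.45 ± 0.51 on the log2 scale (edgeR adjusted p = 0.00232), to 3.72 ± 1.38 CPM in Allo skin against 20.2 ± 7.52 CPM in Syn skin. Of the same 19 genes 0 rose and 1 fell in mCAN10 against Allo skin, the arginine transporter Slc7a2, by 1.48 ± 0.45 (edgeR adjusted p = 0.0407), with a median of -0.35. The call of Slc7a2 was lost without mCAN10 replicate 1, 2 or 3 or Allo replicate 2 or 3. In Allo against Syn skin the 8 rising genes became 5 without Syn replicate 4, and without Allo replicate 2 the falling ones became 2. Of 14 genes of arginine and polyamine metabolism 7 rose and 1 fell in Allo against Syn skin, where 4 rose without Syn replicate 4. Among them the polyamine acetyltransferase Sat1 rose by 1.10 ± 0.22 (edgeR adjusted p = 0.0018) and Nos2, the nitric oxide synthase that draws on the same arginine as arginase, by 3.27 ± 0.82 (edgeR adjusted p = 0.00816). Of these 14 genes 0 rose and 2 fell in mCAN10 against Allo skin, Sat1 by 0.79 ± 0.22 (edgeR adjusted p = 0.0264) and again Slc7a2, with a median of -0.25; in Allo against Syn skin the median was 0.62. In the fit of that counting run alone 1 of the 14 rose and 6 fell in mCAN10 against Allo skin, and without any single library of the 2 groups 0 or 1 fell, with 0 without mCAN10 replicate 2 or 3.

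Among macrophage lists, 8 of 14 pan-macrophage genes rose and 0 fell in Allo against Syn skin, with a median log2 fold change of 1.42, the complement gene C1qb (2.43 ± 0.48, edgeR adjusted p = 0.00158) and the calcium-binding Aif1 (2.26 ± 0.50, edgeR adjusted p = 0.00351) among them. In mCAN10 against Allo skin none of the 14 passed edgeR's test in the fit of all libraries or DESeq2's, 1 was lower at an unadjusted p under 0.05 and 1 fell in an edgeR fit of the 2 groups alone; the median was -0.45, and Trem2, with the lowest p, stood at -1.55 ± 0.73 (edgeR adjusted p = 0.195). Of 15 resident dermal macrophage genes 1 rose and 2 fell in Allo against Syn skin, and 2 rose and 1 fell in mCAN10 against Allo skin, with medians of -0.21 and 0.62. Cd209f fell by 4.15 ± 0.99 in Allo against Syn (edgeR adjusted p = 0.00585) and rose by 3.75 ± 0.98 in mCAN10 against Allo skin (edgeR adjusted p = 0.0182), where its rise rests on replicates 3 and 4 and its call was lost without mCAN10 replicate 4 or Allo replicate 2 or 3. The 2 rising genes of this list became 1 without mCAN10 replicate 3 or Allo replicate 4, and 0 without mCAN10 replicate 4 or Allo replicate 2 or 3; in the fit of that counting run alone 4 fell in Allo against Syn skin. The chemokine Ccl8, listed as a resident macrophage gene, went the other way: it rose by 4.46 ± 0.37 in Allo against Syn (edgeR adjusted p = 3.27e-06) and fell by 2.26 ± 0.34 in mCAN10 against Allo skin (edgeR adjusted p = 0.000644). Of 13 genes of classical activation 9 rose and 0 fell in Allo against Syn skin, with a median of 2.31, led by the interferon-induced chemokines Cxcl10 (5.67 ± 0.80, edgeR adjusted p = 0.000125) and Cxcl9 (6.54 ± 1.01, edgeR adjusted p = 0.000249). In mCAN10 against Allo skin none of the 13 passed edgeR's test in the fit of all libraries, with a median of -0.86, but 5 were lower at an unadjusted p under 0.05, 3 fell in edgeR fits of that counting run or of the 2 groups alone and 2 fell by DESeq2; the cytokine signalling inhibitor Socs3 stood at -0.82 ± 0.30 (edgeR adjusted p = 0.088).

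Some markers of neutrophils and of activated keratinocytes moved with the chitinase-like genes. Of 10 tested neutrophil genes 6 rose and 0 fell in Allo against Syn skin, and 0 rose and 4 fell in mCAN10 against Allo skin. The 6 became 3 without Allo replicate 1 and 4 in a fit of the 2 groups alone, and the 4 became 1 without mCAN10 replicate 1, 2 or 3 and 2 without mCAN10 replicate 4 or Allo replicate 1. The 14 neutrophil genes summed to 37.0 to 73.4 CPM in mCAN10, 148.1 to 269.2 CPM in Allo and 28.5 to 97.3 CPM in Syn libraries. Of the mean Allo sum of 196.6 CPM, Mmp9 alone gave 91.2 CPM, and it averaged 12.8 CPM in mCAN10 skin. Cxcr2, a chemokine receptor of neutrophils, averaged 1.63 ± 0.699 CPM in mCAN10, 19.6 ± 3.76 CPM in Allo and 0.530 ± 0.490 CPM in Syn skin, and S100a9, a calcium-binding protein of neutrophils that stressed keratinocytes also make, 2.90 ± 0.857, 22.7 ± 18.7 and 1.53 ± 0.952 CPM. S100a9 overlapped between Allo libraries, at 2.7 to 47.7 CPM, and mCAN10 libraries, at 1.74 to 3.7 CPM. The defining marker Ly6g reached at most 0.0772 CPM in mCAN10, 0.183 CPM in Allo and 0.0429 CPM in Syn libraries. Mpo, a granule enzyme of neutrophil precursors, averaged 0.544 CPM in mCAN10, 0.164 CPM in Allo and 0.0648 CPM in Syn skin. Elane, of the same list, averaged 0.216 CPM in mCAN10, 0.164 CPM in Allo and 0.434 CPM in Syn skin. Of 13 activated keratinocyte genes 10 rose and 0 fell in Allo against Syn skin, and 0 rose and 10 fell in mCAN10 against Allo skin, where the list summed to 1196 to 1714 CPM in mCAN10, 4404 to 9523 CPM in Allo and 861.5 to 1382 CPM in Syn libraries. Krt16, a keratin of stressed epidermis, averaged 51.4 ± 21.0 CPM in mCAN10, 2390 ± 1120 CPM in Allo and 20.3 ± 4.09 CPM in Syn skin (SD, n = 4 each). The part of neutrophils or keratinocytes in the levels of Chil3, Chil4 and Chil1 was not tested.

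The summed level of a list of general keratinocyte genes was also high in Allo skin. Its genes did not move together, and abundant keratins weigh most in a sum. Krt1 averaged 15300 CPM in Allo and 1910 CPM in Syn skin, but Krt15 averaged 261 and 2280 CPM. As a mean of log2 CPM the list overlapped between groups. It lay at 9.66 to 10.26 in mCAN10, 10.15 to 10.87 in Allo and 9.52 to 10.33 in Syn libraries. The 10 genes of this list summed to 20950 to 32380 CPM in mCAN10, 48650 to 82010 CPM in Allo and 19130 to 32180 CPM in Syn libraries, with every Allo library above all others. Of these 10 genes 4 rose and 1 fell in Allo against Syn skin, and 1 rose and 2 fell in mCAN10 against Allo skin. The 4 became 2 without Allo replicate 4 or Syn replicate 1, 2 or 4. The 2 became 1 without any single library of the 2 groups other than mCAN10 replicate 2 or Allo replicate 2, and 4 in the fit of that counting run alone. The part of this list in the chitinase-like levels was not tested either.

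Of 8 tested monocyte genes 5 rose and 0 fell in Allo against Syn skin, and 3 rose without Allo replicate 1 or 2 or Syn replicate 1, 3 or 4; Fcgr4 rose by 3.98 ± 0.84 (edgeR adjusted p = 0.0026). In mCAN10 against Allo skin none of the 8 passed by edgeR or DESeq2, and 1 was higher at an unadjusted p under 0.05. Of 12 dendritic and Langerhans cell genes 4 rose and 1 fell in Allo against Syn skin (2 rose without Syn replicate 4), and 2 rose and 0 fell in mCAN10 against Allo skin, Cd209a by 3.57 ± 0.69 (edgeR adjusted p = 0.00329) and the Langerhans lectin Cd207 by 2.52 ± 0.62 (edgeR adjusted p = 0.0125). Of 10 tested eosinophil, basophil and mast cell genes 1 rose in Allo against Syn skin, the basophil protease Mcpt8, at 1.49 ± 1.61 CPM in Allo and 0.0112 ± 0.0224 CPM in Syn skin, and 2 fell without Allo replicate 1; in mCAN10 against Allo skin 0 passed by edgeR or DESeq2, 4 were higher at an unadjusted p under 0.05 and 3 rose without Allo replicate 1. Of 10 fibroblast genes 0 rose and 4 fell in Allo against Syn skin, and 4 rose and 0 fell in mCAN10 against Allo skin. Without Allo replicate 1, the library nearly free of muscle transcripts, 7 fell in Allo against Syn and 8 rose in mCAN10 against Allo skin, and 2 rose in mCAN10 against Allo skin without mCAN10 replicate 3. Of 15 hair follicle genes 0 passed edgeR's test over all libraries in either comparison; 2 were higher in Allo against Syn and 2 lower in mCAN10 against Allo skin at an unadjusted p under 0.05, and DESeq2 called 3 higher and 4 lower. The edgeR fit of that counting run alone called 3 higher in Allo against Syn and 2 lower in mCAN10 against Allo skin. Of 15 skeletal muscle genes 1 fell in Allo against Syn skin, a call lost without Allo replicate 2 or 4. In mCAN10 against Allo skin 0 of them passed by edgeR or DESeq2, 1 was lower at an unadjusted p under 0.05, and 1 fell without Allo replicate 1.

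Chil1, Chil3, Chil4 and Cd163 varied most over the 12 libraries of the first counting run, and the genes nearest to them in pattern were found by the root mean square difference of log2 CPM after centring both genes on their means. For Chil3 these were Cxcl9, an interferon-induced chemokine, at 1.49 and the stefin-family gene Stfa3 at 1.5. For Chil4 they were Tdh, a mitochondrial threonine dehydrogenase, at 1.10 and the stress keratin Krt6b at 1.15. For Chil1 they were the growth factor Nrg1 at 0.39 and the interferon-induced Oasl2 at 0.45, and for Cd163 the glutathione peroxidase Gpx3 at 0.49 and Iqsec3 at 0.49. Chil3 had no reads in Syn libraries, and Chil4 none in Syn and mCAN10 libraries. Their log2 CPM there is set by the prior count of 2, and the distances of both genes depend on it. All points of a gene and its neighbour share library and depth, and the distances are a description.

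Nintedanib was compared with water in the second counting run. The members were chosen with earlier results of these data known, so this test gives no independent support. Chil3 and Clec10a were lower in Nin than in Allo_H skin past the test, and the other 7 members were not. Of all tested genes 9.31% passed (5.56% higher and 3.76% lower), and of the 9 members 0 were higher and 2 lower, with a median log2 fold change of -0.93 beside 0 for all genes. That background rests on a spread estimated over all 21 libraries: 1906 genes passed with it, and 94 when the spread was estimated in the 9 libraries of this run alone.

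Chil3 had 0.724, 0.901, 1.52, 2.40 and 0.737 CPM in the Nin libraries, against 22.4, 26.9, 6.45 and 13.9 CPM in the Allo_H libraries. Every Nin library lay below every Allo_H library, with 13 to 45 reads in a Nin library. Chil3 fell by 3.78 ± 0.46 on the log2 scale in Nin against Allo_H skin (edgeR adjusted p = 0.000557), a level 13.7-fold lower. The call held in the fit of this run alone (edgeR adjusted p = 0.0226) and without any single library (edgeR adjusted p from 0.000423 to 0.00257). It was lost in libraries without a note on 2 sequencing lanes (-2.69, edgeR adjusted p = 0.058) and with a replicate block (-3.56, edgeR adjusted p = 0.14). An exact 2-sided permutation test over the 9 libraries gave p = 0.00794, the smallest it can give.

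Clec10a had 24.2, 53.9, 37.0, 33.3 and 38.3 CPM in the Nin libraries, against 73.6, 111, 249 and 58.6 CPM in the Allo_H libraries. The groups did not overlap, although Nin replicate 2 and Allo_H replicate 4 lay close together, and Allo_H replicate 3 was more than 2 times any other. Groups without overlap were found for 7.94% of all tested genes in this comparison, and for Chil3 and Clec10a among the 9 members. Clec10a fell by 1.72 ± 0.33 on the log2 scale (edgeR adjusted p = 0.00478; exact 2-sided permutation p = 0.00794). The call was lost in the fit of this run alone (edgeR adjusted p = 0.0858), and without Allo_H replicate 3 the change was -1.14 (edgeR adjusted p = 0.0155).

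Chil4 had 0 CPM in 4 Nin libraries and 4.25 CPM in replicate 5, against 48.4, 2.92, 1.46 and 8.67 CPM in the Allo_H libraries. Nin replicate 5 held 75 Chil4 reads but only 13 Chil3 reads, so 85.2% of its reads on both genes were on Chil4, against 68.4%, 9.79%, 18.4% and 38.5% in the Allo_H libraries. The difference of -4.19 ± 1.57 did not pass the test across all genes (edgeR adjusted p = 0.111). It passed without Nin replicate 5 (edgeR adjusted p = 0.022), and without Allo_H replicate 1 it was -2.37 (edgeR adjusted p = 0.388). Chil1, the third chitinase-like gene, had 12.8, 2.12, 8.77, 4.53 and 13 CPM in Nin libraries, against 37.0, 5.62, 4.66 and 32.2 CPM in Allo_H libraries. The groups overlapped, with Allo_H replicates 1 and 4 above all others, and the difference was -1.27 ± 0.58 (edgeR adjusted p = 0.177).

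The receptors other than Clec10a did not pass. Mrc1 had 48.3, 84.6, 54.0, 102 and 126 CPM in Nin libraries, against 101, 171, 247 and 102 CPM in Allo_H libraries, a difference of -0.90 ± 0.30 (edgeR adjusted p = 0.0665). Folr2 lay between 21.6 and 30.7 CPM in Nin libraries and between 21.1 and 87.1 CPM in Allo_H libraries, a difference of -0.93 ± 0.34 (edgeR adjusted p = 0.0923) that was -0.44 without Allo_H replicate 3. Cd163 lay between 5.01 and 15.7 CPM in Nin libraries and between 4.33 and 10.3 CPM in Allo_H libraries, a difference of 0.69 ± 0.50 (edgeR adjusted p = 0.433). All 3 receptors overlapped between the groups. Relative to the 14 macrophage genes, Mrc1 stood at 0.62 ± 0.45 in Nin and 0.43 ± 0.35 in Allo_H skin, Clec10a at -0.48 ± 0.87 and -0.04 ± 0.70, and Folr2 at -1.06 ± 0.93 and -1.40 ± 0.82 (SD of log2 differences, n = 5 and 4). On this scale all 3 overlapped between the groups, Clec10a included, and the macrophage genes themselves summed to 1023 to 3548 CPM in Nin and 2485 to 4378 CPM in Allo_H libraries.

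Arg1 had 59.4, 31.2, 31.7, 33.2 and 27.5 CPM in Nin libraries, against 25.0, 18.1, 19.9 and 35.8 CPM in Allo_H libraries. The difference of 0.57 ± 0.23 did not pass (edgeR adjusted p = 0.124), and it was 0.29 without Nin replicate 1, a library rich in hair follicle transcripts. Retnla had 82.0, 186, 106, 404 and 52.3 CPM in Nin libraries, against 260, 147, 209 and 64.7 CPM in Allo_H libraries. Both groups spanned low and high levels, and the difference was -0.03 ± 0.55 (edgeR adjusted p = 1); a difference of the size of that SE was not detectable with this spread.

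In the same comparison, where 9.31% of all tested genes were called, 0 of 19 genes of the IL-4 and IL-13 axis rose and 5 fell. Their median was -0.60. Stat3 fell by 0.91 ± 0.15 on the log2 scale (edgeR adjusted p = 0.00208), Il4ra, the receptor chain shared by IL-4 and IL-13, by 1.34 ± 0.25 (edgeR adjusted p = 0.0043), Cish by 0.89 ± 0.18 (edgeR adjusted p = 0.007) and the kinase Tyk2 by 0.54 ± 0.13 (edgeR adjusted p = 0.0163). In the fit of this run alone 1 of the 19 passed, Cish (edgeR adjusted p = 0.0471), and 3 fell without Allo_H replicate 2 or 4. Of 19 other alternative activation genes 0 rose and 1 fell, Pdcd1lg2, which fell by 1.91 ± 0.57 (edgeR adjusted p = 0.0423), and of 14 genes of arginine and polyamine metabolism 0 rose and 1 fell, Nos2, by 3.17 ± 0.75 (edgeR adjusted p = 0.0144). Of 14 pan-macrophage genes 1 fell, C1qa, by 1.48 ± 0.42 (edgeR adjusted p = 0.033), and of 15 resident macrophage genes 2 fell, Ccl8 by 2.62 ± 0.32 (edgeR adjusted p = 0.000419) and the scavenger receptor Stab1 by 1.56 ± 0.28 (edgeR adjusted p = 0.00316). Of 13 classical activation genes 3 fell and of 8 monocyte genes 1 fell. In the fit of this run alone 0 genes of the alternative activation, arginine, pan-macrophage and classical activation lists passed, and 1 gene each of the resident macrophage and monocyte lists. Single libraries decided these counts too. Without Nin replicate 4, 7 alternative activation, 3 arginine, 6 pan-macrophage, 2 monocyte and 8 classical activation genes fell, and without Nin replicate 5 it was 2 for alternative activation and 3 for pan-macrophage genes. Pdcd1lg2 and C1qa each lost their call without Nin replicate 1, 2 or 3 or Allo_H replicate 2, 3 or 4, and Nos2 without Allo_H replicate 2. The classical activation genes that fell became 1 without Nin replicate 3 or Allo_H replicate 2, 3 or 4.

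Markers of other cell types were followed here as well. Of 10 neutrophil genes 0 rose and 3 fell, and the list summed to 26.8 to 104.7 CPM in Nin and 123.3 to 434.1 CPM in Allo_H libraries, with Ly6g at most 0.0557 CPM in Nin and 0.265 CPM in Allo_H libraries. Of 13 activated keratinocyte genes 0 rose and 6 fell, and the list summed to 912.9 to 2825 CPM in Nin and 2406 to 11450 CPM in Allo_H libraries. In the fit of this run alone 0 neutrophil and 2 activated keratinocyte genes fell, without Nin replicates 1 and 3 it was 0 and 5, and 1 neutrophil gene fell without Nin replicate 2 or 3 or Allo_H replicate 4. Of 15 hair follicle genes 11 rose (DESeq2 called 15), but 0 in the fit of this run alone, 0 without Nin replicate 1 or Allo_H replicate 2 or 4, 1 without Nin replicate 3 or Allo_H replicate 1, and 5 without Allo_H replicate 3. Without Nin replicates 1 and 3 none of the 15 passed by edgeR's test, with 3 at an unadjusted p under 0.05, and Chil3 still did (-3.71, edgeR adjusted p = 0.00376), as did Clec10a (-1.60, edgeR adjusted p = 0.0268). Of 12 dendritic cell genes, 10 keratinocyte genes and 10 fibroblast genes, 1 each rose, and 2 keratinocyte genes fell. In the fit of this run alone 1 keratinocyte gene rose and none of these lists had another call, and leaving out single libraries of either group took the rising genes to 0 in each list and the falling keratinocyte genes to between 0 and 4. The keratinocyte list summed to 8203 to 46510 CPM in Nin and 40200 to 84720 CPM in Allo_H libraries, with overlap. Of 10 eosinophil, basophil and mast cell genes none passed edgeR's test, 1 was lower at an unadjusted p under 0.05 and 1 fell by DESeq2 or without Nin replicate 5 or Allo_H replicate 2; of 15 muscle genes 0 passed by edgeR, DESeq2 or an unadjusted p under 0.05. The part of these cell types in the levels of Chil3 and Clec10a was not tested.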

How the data were processed

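Poly-A RNA was sequenced from unstranded libraries, per the labels' protocols. The deposited values are whole-number read counts per gene symbol, which the authors made with FastQC, Trimmomatic, STAR and featureCounts on GRCm39, per the submitters' processing notes; the sources used here give no versions, settings or annotation. The table holds 2 counting runs, with 12 and 9 libraries: 21830 symbols had counts in both, and 12094 in the first but not the second, 6185 in the second but not the first. A symbol without counts in a run cannot be called there. Where such symbols passed the filter, they lower the shares of all tested genes set beside the members and lists.

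Counts were fitted with edgeR 4.0.16 in R 4.3.3 (glmQLFit, glmQLFTest) over all 21 libraries with a mean per group, TMM factors and filterByExpr at a minimum count of 10. Calls are at an adjusted p (Benjamini-Hochberg, over all 20462 genes) under 0.05. SEs therefore use a spread pooled over all groups. Log2 CPM used a prior count of 2, and bounds a floor of 3 counts over a group at 0. Calculations were checked on simulated counts. Intervals and floors cover counting error only.

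The members and the 15 gene lists were chosen with earlier results of these data known. Members were tested only for Nin against Allo_H, and the result is no independent support. Named genes were all members, up to 4 called genes with the lowest p for the IL-4/IL-13 and alternative activation lists and up to 2 for other lists (or the lowest p where none passed), the nearest 2 genes in pattern for members with an SD above 1 over 12 libraries, and Il1rap; genes such as Il4, Il13 and Ly6g were added after their values were seen. Exon lengths, transcripts and overlaps came from GENCODE M21 and promoters from RefSeq, both GRCm38, an older build than that of the counts. Alternatives were RLE factors, no filter, fewer libraries or symbols, DESeq2 1.42.0, replicate blocks, hair or muscle content as a covariate, exact permutation and leaving out libraries. Plots used Python 3.11.15 and matplotlib 3.10.9.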

Additional observations from a re-analysis of the deposited data

Results flagged for a closer look

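Among the 42 combinations of a member and a group tested for a sample far from its group, 3 held one; chance alone gives about 1 in 20. Chil4 was at 4.25 CPM in Nin replicate 5 and at 0 in the other 4 Nin libraries. Chil4 was also at 48.4 CPM in Allo_H replicate 1, against at most 8.67 CPM in the other 3 Allo_H libraries. Arg1 was at 59.4 CPM in Nin replicate 1, against at most 33.2 CPM in the other 4 Nin libraries; that library also held the highest hair follicle sum, 62100 CPM, whose part in the level was not tested.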

How the results depend on the processing

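The count of genes called in Allo against Syn skin (4621) stayed between 3455 and 6538 under the other settings and between 3580 and 4953 without single libraries. In mCAN10 against Allo skin (2204) it was 3664 in the fit of that counting run alone, 1570 with a replicate block by title number and 0 with one by description number, and 1284 to 2168 without single libraries, lowest without mCAN10 replicates 4 (1284) and 3 (1353) and Allo replicate 4 (1320). In Nin against Allo_H skin (1906) it was 1190 without a filter, 94 with only these 2 groups or only that run, 33 with a replicate block, 3046 with DESeq2, 242 and 333 with only libraries that have or lack a note on 2 sequencing lanes, 1225 without the 2 hair-rich libraries, and 782 to 2794 without single libraries. The 2 members called there became 1 with only these 2 groups, only that run, or only libraries with or without the lane note, 0 with the replicate block, and 2 to 4 without single libraries, with 4 without Nin replicate 5. Chil3 lost its call with the block (-3.56, edgeR adjusted p = 0.14) and in libraries without the lane note (-2.69, edgeR adjusted p = 0.058), and Clec10a with the block (-1.54, edgeR adjusted p = 0.166) and in libraries with the note (-1.13, edgeR adjusted p = 0.0709). Mrc1 was called by DESeq2 (-0.91, adjusted p = 0.028). Retnla, near 0, turned to 0.00 with the block, 0.22 with hair content as a covariate, 0.83 without the lane note, 0.30 without the hair-rich libraries, and -0.68 to 0.24 without single libraries. The causes were not tested. Correlations between same-numbered libraries were -0.19 to 0.04 for Nin and Allo_H, -0.23 to 0.20 for Allo and Syn, and for mCAN10 and Allo -0.03 to 0.35 by title and 0.26, -0.35 and 0.27 by description number; in no comparison were all above 0.1, so the numbers were not taken as pairs. Depth limits Chil3 in Nin skin, with 13 reads in the lowest library.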
